A study of Mus musculus with 20 samples.

Results

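Bone morphogenetic proteins (BMPs) and the proteins that hold them in check were followed through 9 genes in mesenchymal cells of the mouse liver. The set was chosen by gene symbol, with earlier results of these data known. It comprised the ligand genes Bmp2, Bmp4, Bmp5, Bmp6, Bmp10 and Gdf2, the antagonist genes Grem1 and Bmper, and the response gene Id1. These were 9 of the 24848 genes in the deposited tables, and all 9 were among the 14751 that passed a filter on low counts. RNA was sequenced from 20 libraries in 5 groups of 4, all from C57BL/6 livers. Portal mesenchymal stem cells (PMSC), stromal cells from around the portal vein, were profiled fresh and as the myofibroblasts they became after 3 days (PMSC-MF-3d) and 7 days (PMSC-MF-7d) in culture. Hepatic stellate cells (HSC), the pericytes that store vitamin A along the sinusoids, were profiled as cultured myofibroblasts (HSC-MF-7d) and fresh. The titles give the cultured stellate cells 7 days and the series description gives them 3 days, so their time in culture is uncertain. No group carried a transgene or drug by the labels, and the age and sex of the mice, the way the cells were isolated and the culture medium were not given in the sources used here.

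Libraries of fresh PMSC summed to 11810532 to 21438753 expected counts, day 3 portal cultures to 23641579 to 24258856 and day 7 portal cultures to 22738017 to 26675589. Cultured stellate libraries summed to 13572278 to 18382038 and fresh ones to 14806349 to 18650355. The labelled cell types carried their markers: 10 portal fibroblast genes summed to 18380 to 20900 CPM (read counts per 1000000 of a library's total after scaling) in PMSC and 154 to 268 CPM in HSC, and 10 stellate genes to 2347 to 3089 CPM in PMSC and 19110 to 29630 CPM in HSC. The scaling, by trimmed mean of log ratios (TMM), multiplied totals by 0.739 to 0.811 in PMSC, by 0.964 to 1.03 in HSC and by 1.06 to 1.13 in the cultures, so CPM stand above counts per unscaled total in PMSC and below them in culture. Fresh HSC libraries also held RNA of other liver cells. A list of 12 sinusoidal endothelial genes summed to 95.1 to 316 CPM in PMSC, against 10100 to 12640 CPM in HSC, and 10 Kupffer cell genes to 1.46 to 5.24 CPM in PMSC, against 2623 to 10070 CPM in HSC. Cd163, Vsig4 and Marco were at 0 in PMSC, and none of these markers was at 0 in fresh HSC. A list of 10 hepatocyte genes summed to 1208 to 2079 CPM in PMSC, against 4069 to 17240 CPM in HSC. In PMSC most of that sum was Cyp2e1, at 582 to 993 CPM, and Trf, at 581 to 1059 CPM. The part of endothelial, Kupffer cell or hepatocyte RNA in the fresh levels of the genes below was not tested. After culture the endothelial sum was 142 to 328 CPM in PMSC-MF-7d and 228 to 285 CPM in HSC-MF-7d, most of it from the phosphatase gene Ptprb. The other 11 endothelial genes summed to 3.33 to 5.68 CPM in PMSC-MF-7d against 75.0 to 244 CPM in PMSC, and to 18.7 to 26.2 CPM in HSC-MF-7d against 8410 to 10400 CPM in HSC. In PMSC-MF-7d, 11 of the 12 were lower than in PMSC, Ptprb was higher, and the capillary lectin Clec4g was at 0. In bulk RNA, fewer cells of a type and less RNA per cell cannot be told apart. Whether the 4 libraries of a group stem from different mice or dishes is not labelled, and the p-values then reflect only how far these samples scatter, possibly for technical reasons.

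BMPs are secreted dimers of the TGF-beta superfamily that bring together type I and type II receptors at the cell surface. The receptors phosphorylate SMAD1, SMAD5 and SMAD9, which enter the nucleus with SMAD4 and switch on genes such as Id1. Antagonists act outside the cell by binding the ligand before it reaches its receptor. In the liver, BMP2 and BMP6 from sinusoidal endothelium drive hepcidin production in hepatocytes, and BMP9, the product of Gdf2, and BMP10 circulate and act on endothelium through the receptor ALK1, encoded by Acvrl1.

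The genes lie on 5 chromosomes of the mouse assembly GRCm38.p6, the assembly behind the mm10 build named by the submitters. Bmp2, Grem1 and Id1 are on chromosome 2 at 133552159 to 133562896, 113748675 to 113758648 and 152736251 to 152737410. Bmp5 and Bmper are on chromosome 9 at 75775365 to 75900316 and 23223076 to 23485215, and Bmp4 and Gdf2 are on chromosome 14 at 46383525 to 46390669 and 33941039 to 33947198. Bmp6 is on chromosome 13 at 38345716 to 38500314 and Bmp10 on chromosome 6 at 87428994 to 87434512. RefSeq promoter sequences of this build matched 7 of the 9 genes. The 250 bases before the start are shown for 4 genes: Bmp10 and Gdf2, the ligands that set HSC most apart from PMSC, and Grem1 and Bmper, the antagonists that rose in both cultures. They run 5′ to 3′ on the strand of the gene, and capitals mark matches to the 6 motifs searched.
Bmp10, chr6:87428744-87428993, plus strand: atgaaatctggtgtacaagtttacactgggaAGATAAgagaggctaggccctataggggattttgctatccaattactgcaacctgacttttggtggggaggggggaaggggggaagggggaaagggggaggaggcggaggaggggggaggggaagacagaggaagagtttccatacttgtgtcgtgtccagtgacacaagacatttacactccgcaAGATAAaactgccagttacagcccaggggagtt
Gdf2, chr14:33940789-33941038, plus strand: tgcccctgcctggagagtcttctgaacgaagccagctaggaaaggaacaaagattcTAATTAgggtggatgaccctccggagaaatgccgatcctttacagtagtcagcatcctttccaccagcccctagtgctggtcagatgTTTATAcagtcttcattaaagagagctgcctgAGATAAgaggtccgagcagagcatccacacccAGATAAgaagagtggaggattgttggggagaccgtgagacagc
Grem1, chr2:113758649-113758898, minus strand: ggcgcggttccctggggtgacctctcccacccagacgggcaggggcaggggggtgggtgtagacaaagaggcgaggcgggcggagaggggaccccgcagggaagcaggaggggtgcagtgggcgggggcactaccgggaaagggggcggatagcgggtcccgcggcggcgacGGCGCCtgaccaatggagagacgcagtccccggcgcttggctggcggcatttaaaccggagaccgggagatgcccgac
Bmper, chr9:23222826-23223075, plus strand: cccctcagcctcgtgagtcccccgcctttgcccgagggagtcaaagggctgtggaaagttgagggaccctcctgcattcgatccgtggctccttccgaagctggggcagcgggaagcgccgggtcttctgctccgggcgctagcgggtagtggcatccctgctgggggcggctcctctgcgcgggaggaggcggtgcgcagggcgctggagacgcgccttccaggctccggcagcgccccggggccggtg
All motifs were searched on both strands, and no match overlapped another in these windows. The GATA factor motif AGATAA stood at 219 and 33 bases before the start in Bmp10 and at 75 and 43 bases in Gdf2, and 9.99% of 32851 RefSeq promoters of the same length held it. Gdf2 also held the homeodomain core TAATTA at 194 bases, found in 4.84% of promoters. The core promoter box TATAAA lay at 107 bases in Gdf2 on the other strand, where the printed letters are its complement read backwards, and was found in 12.4% of promoters. Grem1 held GGCGCC, a motif of SMAD1 and SMAD5, at 78 bases, found in 9.59% of promoters, and Bmper held none of the 6. The windows of Bmp4, Bmp5 and Bmp6, searched but not shown, also held none of the 6. The TEAD motif CATTCC was found in 12.6% of promoters and in none of the 4 windows. The AP-1 motif TGANTCA was found in 6.75% of promoters and likewise in none of the 4. A match describes the letters and not a site in use.

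Fresh PMSC held less Bmp2, Bmp5, Bmp6, Bmp10, Gdf2 and Id1 than fresh HSC and more Bmp4, Grem1 and Bmper. All 9 genes passed edgeR's quasi-likelihood test at an adjusted p under 0.05, 3 higher and 6 lower, where 73.7% of all genes tested passed, 33.6% higher and 40.1% lower. The median log2 fold change was -2.01 over the 9 genes and -0.10 over all genes. Since the 9 genes and the pathway lists further below were chosen with earlier results known, their counts and medians beside those of all genes are a description only. In portal cells, Bmp2, Bmp4, Bmp5, Bmp6 and Gdf2 fell and Grem1, Bmper and Id1 rose by day 3 of culture, and these 8 genes were called in the same directions at day 7 against fresh cells. The share of all genes called was 78.3% at day 3, with 37.2% higher and 41.1% lower, and 77.0% at day 7, with 38.1% higher and 39.0% lower. The median over the 9 genes was -1.17 at day 3 and -1.86 at day 7, and over all genes -0.07 and 0.00. Between day 7 and day 3, 4 genes were called, Bmp4 and Grem1 higher and Bmp2 and Bmp5 lower, against 36.0% of all genes, 18.6% higher and 17.4% lower, with medians of -0.69 and 0.00.

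Stellate cells in culture lowered Bmp2, Bmp4, Bmp5, Bmp6, Gdf2 and Id1 and raised Grem1 and Bmper relative to fresh HSC. These were 8 of the 9 genes, against 74.5% of all genes called, 36.0% higher and 38.5% lower, and the medians were -2.11 over the 9 genes and -0.03 over all. Between the cultured populations, PMSC-MF-7d had more Bmp4, Grem1 and Id1 and less Bmp2, Bmp5, Bmp10, Gdf2 and Bmper than HSC-MF-7d, again 8 of the 9 genes, where 47.1% of all genes were called, 23.9% higher and 23.1% lower. The medians were -0.78 and 0.00. The change in portal culture differed from the change in stellate culture for 6 genes, higher for Bmp6 and Id1 and lower for Bmp2, Bmp5, Grem1 and Bmper, against 60.6% of all genes, 31.4% higher and 29.2% lower, with medians of -1.35 and 0.10. The comparisons share groups and are therefore not independent of each other. With library totals in place of TMM scaling, the share of higher genes among all those called was 33.3% instead of 45.6% for PMSC against HSC, 61.7% instead of 47.5% for day 3 and 63.5% instead of 49.4% for day 7 against fresh PMSC, and 66.0% instead of 51.8% for the difference of culture changes. None of the 9 genes changed direction under it.

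**Figure D1:**
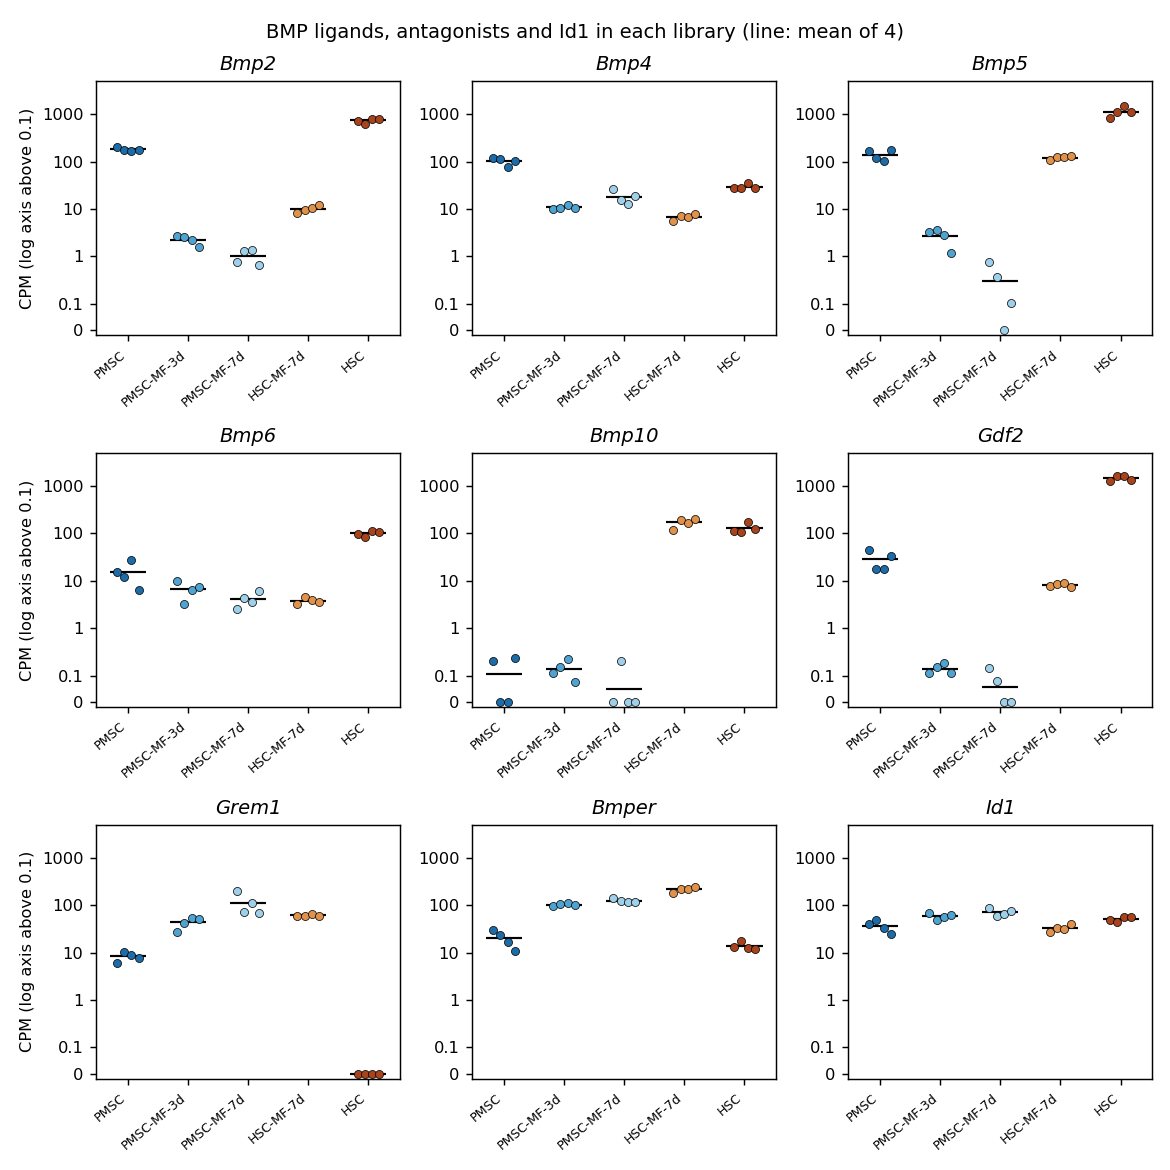
Level of each of the 9 genes in every library, in CPM on a log axis above 0.1, by group, with a line at the mean of the 4 libraries. Gdf2 stood at 0.145 CPM or less in PMSC-MF-7d and at 1258 to 1637 CPM in HSC, Bmp10 was above 100 CPM in both stellate groups, and Grem1 was at 0 in all 4 fresh HSC libraries.

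The summed message of the 6 ligands, set per transcript length as TPM, was far larger in stellate than in portal cells. It was 273 ± 42.1 TPM in PMSC and 2644 ± 409 TPM in HSC (SD, n = 4 each). In culture it was 21.1 ± 2.10 TPM in PMSC-MF-3d, 27.3 ± 7.76 TPM in PMSC-MF-7d and 460.4 ± 85.2 TPM in HSC-MF-7d (SD, n = 4 each), so every library of HSC-MF-7d, at 339 TPM or more, lay above every fresh portal library, at 312 TPM or less. The make-up of the sum also differed. Fresh PMSC ligand message was on average 34.0% Bmp4, 33.2% Bmp2, 23.3% Bmp5, 5.96% Gdf2, 3.51% Bmp6 and 0.0541% Bmp10. In HSC it was 42.8% Gdf2, 25.4% Bmp5, 18.1% Bmp2, 9.35% Bmp10, 2.95% Bmp6 and 1.31% Bmp4. Bmp4 took 59.7% of the sum at day 3 of portal culture and 82.6% at day 7, with Bmp6 next at 23.9% and 13.3%. Bmp10 took 77.0% in HSC-MF-7d, followed by Bmp5 at 17.3%. A different ligand led in each of PMSC-MF-7d, HSC-MF-7d and fresh HSC, and in fresh PMSC the share of Bmp4, 30.1% to 39.1%, overlapped that of Bmp2, 30.5% to 37.5%. These shares are a description and were not tested. Sums and shares hold for the 6 chosen ligands only, and ligand genes outside the set would change them. The BMP3B gene Gdf10, outside the set, averaged 426 TPM in PMSC and 255 TPM in HSC. The activin A subunit gene Inhba averaged 233 TPM in PMSC-MF-7d and 575 TPM in HSC-MF-7d.

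**Figure D2:**
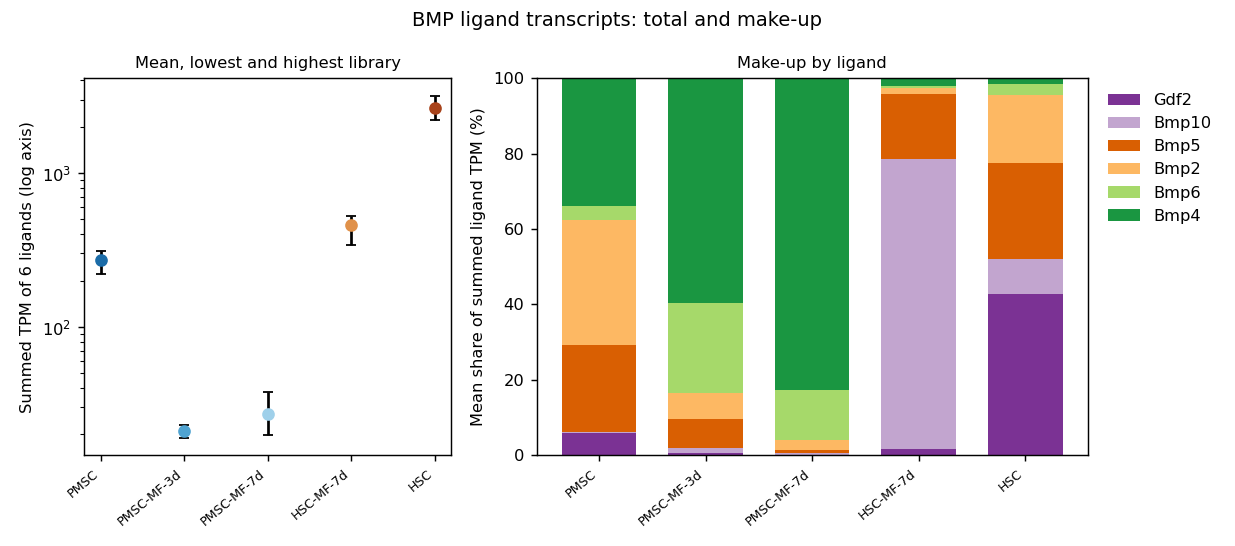
Left, summed level of the 6 ligand genes in TPM by group, as the mean of 4 libraries with bars from the lowest to the highest library; right, mean share of each ligand in that sum in percent. Bmp4 makes up 82.6% of the sum in PMSC-MF-7d, Bmp10 77.0% in HSC-MF-7d and Gdf2 42.8% in HSC.

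Gdf2 encodes BMP9, a circulating ligand with high affinity for ALK1. Its levels were 44.7, 17.6, 17.97 and 32.7 CPM in the PMSC libraries, against 1258, 1637, 1618 and 1309 CPM in HSC. Cultured portal cells had 0.113 to 0.183 CPM at day 3 and 0.145, 0.0816, 0 and 0 CPM at day 7, and HSC-MF-7d had 7.94, 8.46, 9.20 and 7.49 CPM. Fresh HSC stood apart from every other group, and the only neighbours in the order of levels that overlapped were the 2 portal cultures. Gdf2 was 51.5-fold lower in PMSC than in HSC (log2 fold change -5.68 ± 0.27 SE, adjusted p = 6.5e-13 by edgeR). Culture lowered it 499-fold in PMSC-MF-7d (-8.84 ± 0.44, adjusted p = 6e-13) and 176-fold in HSC-MF-7d (-7.46 ± 0.30, adjusted p = 4.2e-14). The portal fall was in place at day 3 (-7.60 ± 0.39, adjusted p = 8.5e-13), and PMSC-MF-7d had less Gdf2 than HSC-MF-7d (-7.06 ± 0.47, adjusted p = 5e-10). Without PMSC-MF-7d replicate 1, which held most of the day 7 counts, the portal value was -9.81 and the one against HSC-MF-7d was -8.04, and with the day 3 portal culture in place of day 7 the difference from HSC-MF-7d was -5.82. The difference of the culture changes, -1.38 ± 0.73, was not called by edgeR (adjusted p = 0.11), and it was called without PMSC replicate 2 at -1.67 (adjusted p = 0.036), by DESeq2 at -1.61 (adjusted p = 0.03) and, with the opposite sign, by limma on log2(TPM + 1) at 3.16 (adjusted p = 9.6e-09). Limma on log2(TPM + 0.1) gave 0.51 (adjusted p = 0.27). Mean Gdf2 in PMSC-MF-7d, 0.0475 TPM, lay below both added values, which limits the portal fall that limma can show. It was -3.98 with 1 added and -6.81 with 0.1 added. HSC-MF-7d kept 0.569% of the fresh Gdf2 level, and over the same culture it kept a median of 0.331% of the 12 endothelial genes, between 0.0129% for Dnase1l3 and 11.3% for Ptprb. Over the 10 stellate genes the median kept was 11.3%, between 0.0407% for the retinol acyltransferase gene Lrat and 76.0% for the growth factor receptor gene Pdgfrb. Fresh PMSC held 1.94% of the HSC level of Gdf2, and of the 10 stellate genes between 0.722% for Reln and 141% for Pdgfrb. PMSC-MF-7d kept 0.2% of the fresh PMSC level of Gdf2, and of the stellate genes between 0.0232% for Lrat and 74.5% for Hand2. The parts of endothelial RNA in the fresh HSC level and of stellate RNA in the fresh PMSC level were not tested.

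Bmp10, the second ALK1 ligand and best known from the heart, followed Gdf2 in fresh cells but not in culture. HSC-MF-7d libraries had 120.3, 195.0, 169 and 197 CPM and HSC libraries 111, 108, 176 and 121 CPM, overlapping ranges. The portal groups were near the floor, with 7 counts over the 4 PMSC libraries, 15 over PMSC-MF-3d and 5 over PMSC-MF-7d, all 5 of these in replicate 2, against 12323 in HSC-MF-7d and 8698 in HSC. Bmp10 was 1190-fold lower in PMSC than in HSC (-9.99 ± 0.42, adjusted p = 1.2e-13 by edgeR) and 3340-fold lower in PMSC-MF-7d than in HSC-MF-7d (-11.66 ± 0.43, adjusted p = 3.4e-13). Without PMSC replicate 4 the fresh difference was -10.65, and without PMSC-MF-7d replicate 2 its group held no counts, so that no size of the cultured difference can be given (adjusted p = 1.2e-11). Stellate culture gave 0.40 ± 0.22 against fresh HSC (adjusted p = 0.10), which was not called. It was called at 0.52 with library totals in place of TMM scaling (adjusted p = 0.039), at 0.60 without HSC replicate 3 (adjusted p = 0.02) and at 0.55 without HSC-MF-7d replicate 1 (adjusted p = 0.036). Bmp10 stood at 132% of its fresh level in stellate culture. The 12 endothelial genes stood at 0.0129% to 11.3% of theirs and the 10 stellate genes at 0.0407% to 76.0%. The cell source of Bmp10 was not tested. Portal culture changes of Bmp10, 0.20 ± 0.94 at day 3 and -1.27 ± 1.15 at day 7, were not called (adjusted p = 0.85 and 0.32 by edgeR), and a change was not detectable at these counts.

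Bmp5, a ligand of the BMP7 subgroup, was high in both fresh populations, and in culture it stayed above 100 CPM in the stellate libraries only. It had 168.5, 121, 101 and 173 CPM in PMSC and 836, 1132, 1455 and 1127 CPM in HSC, an 8.07-fold lower level in PMSC with no overlap (-3.01 ± 0.30, adjusted p = 3.1e-08 by edgeR). Portal culture left 3.27, 3.68, 2.79 and 1.17 CPM at day 3 and 0.760, 0.367, 0 and 0.106 CPM at day 7, and HSC-MF-7d had 108, 125, 122 and 129 CPM. Cultured stellate cells therefore overlapped fresh portal cells, while both portal cultures lay below every other library. Bmp5 fell 457-fold in PMSC-MF-7d against PMSC (-8.82 ± 0.45, adjusted p = 1e-12) and 9.40-fold in HSC-MF-7d against HSC (-3.23 ± 0.31, adjusted p = 1.1e-08). The difference between these changes was -5.58 ± 0.54 (adjusted p = 3.7e-08 by edgeR), -6.57 without PMSC-MF-7d replicate 1 and -2.46 with the day 3 portal culture in place of day 7, an alternative chosen after seeing the data, and it passed the test in each. Bmp5 was lower at day 3 than in fresh PMSC (-5.69 ± 0.36, adjusted p = 2e-11) and lower at day 7 than at day 3 (-3.13 ± 0.50, adjusted p = 6.8e-05). PMSC-MF-7d had 392-fold less than HSC-MF-7d (-8.60 ± 0.45, adjusted p = 2.4e-11). PMSC-MF-7d replicate 1 held most of the counts of its group, and without it Bmp5 at day 7 was -9.79 against PMSC, -4.13 against day 3 and -9.59 against HSC-MF-7d. With the day 3 portal culture in place of day 7 the difference from HSC-MF-7d was -5.47.

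Bmp2, which binds the type I receptor BMPR1A with high affinity, fell steeply in both cultures. Its levels were 208, 176, 171 and 175 CPM in PMSC and 731, 616, 794 and 808 CPM in HSC, a 4.03-fold lower level in PMSC (-2.01 ± 0.15, adjusted p = 3.6e-10 by edgeR). They were 1.62 to 2.66 CPM in PMSC-MF-3d, 0.672 to 1.36 CPM in PMSC-MF-7d and 8.41 to 12.0 CPM in HSC-MF-7d, and none of the 5 groups overlapped its neighbour in the order of levels. The fall was 179-fold in PMSC-MF-7d against PMSC (-7.48 ± 0.21, adjusted p = 2.6e-16) and 72.3-fold in HSC-MF-7d against HSC (-6.18 ± 0.18, adjusted p = 7.7e-16). Most of the portal fall was present at day 3 (-6.32 ± 0.19, adjusted p = 6.8e-16), and PMSC-MF-7d had 9.96-fold less Bmp2 than HSC-MF-7d (-3.32 ± 0.20, adjusted p = 9e-11). The difference of the culture changes was -1.31 ± 0.25 (adjusted p = 0.00013 by edgeR), but it was -0.15 with the day 3 portal culture in place of day 7 (adjusted p = 0.60) and 0.13 by limma on log2(TPM + 1) (adjusted p = 0.56). Mean Bmp2 in PMSC-MF-7d, 0.70 TPM, lay below the added 1, which limits the portal fall that this limma fit can show.

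Bmp6, the main iron-responsive BMP of the liver, had 15.6, 12.0, 27.1 and 6.39 CPM in PMSC and 97.3, 82.1, 112 and 109 CPM in HSC. Every fresh HSC library lay above every other library, and the remaining 4 groups overlapped their neighbours. Bmp6 was 6.56-fold lower in PMSC than in HSC (-2.74 ± 0.34, adjusted p = 6.4e-07 by edgeR). It fell to 2.498 to 6.01 CPM in PMSC-MF-7d against PMSC (-1.86 ± 0.36, adjusted p = 9.1e-05) and, 26.1-fold, to 3.31 to 4.56 CPM in HSC-MF-7d against HSC (-4.70 ± 0.38, adjusted p = 1.2e-09). The portal fall was the smaller by 2.84 ± 0.50 on the log2 scale (adjusted p = 6.8e-05), and the cultured groups were not told apart (0.10 ± 0.37, adjusted p = 0.85). At day 3 Bmp6 had 3.23 to 9.74 CPM (-1.17 ± 0.34 against PMSC, adjusted p = 0.0044), a call that did not hold with library totals at -0.66 (adjusted p = 0.096) or with limma on log2(TPM + 1) at -0.63 (adjusted p = 0.055) and on log2(TPM + 0.1) at -0.73 (adjusted p = 0.059). Bmp2 and Bmp6 are both made by sinusoidal endothelium, and HSC-MF-7d kept 1.38% and 3.83% of their fresh levels. Fresh HSC held the endothelial RNA given above, and its part in the Bmp2, Bmp5 and Bmp6 levels of fresh HSC was not tested. The part of stellate RNA in the levels of these genes in fresh PMSC was not tested either.

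Bmp4, a close relative of Bmp2, was the ligand of the set with more message in portal cells. It had 121, 114, 75.8 and 105.5 CPM in PMSC and 27.6, 28.4, 35.2 and 27.3 CPM in HSC, 3.51-fold higher in PMSC with no overlap (1.81 ± 0.19, adjusted p = 3.8e-08 by edgeR). Its levels were 10.2, 10.4, 12.0 and 10.7 CPM in PMSC-MF-3d, 26.9, 15.2, 12.6 and 18.5 CPM in PMSC-MF-7d and 5.57, 7.04, 6.88 and 7.97 CPM in HSC-MF-7d. No group overlapped its neighbour in the order PMSC, HSC, PMSC-MF-7d, PMSC-MF-3d and HSC-MF-7d. Bmp4 fell at day 3 against fresh PMSC (-3.27 ± 0.20, adjusted p = 8.4e-12) and was higher at day 7 than at day 3 (0.76 ± 0.19, adjusted p = 0.0035). Over the whole portal culture it fell 5.69-fold (-2.51 ± 0.19, adjusted p = 3.1e-10), and in stellate culture 4.32-fold (-2.11 ± 0.20, adjusted p = 9e-09). The difference between these, -0.40 ± 0.27, was not called (adjusted p = 0.21 by edgeR), but it was called at -0.63 without PMSC-MF-7d replicate 1 (adjusted p = 0.018) and at -1.16 with the day 3 portal culture in place of day 7 (adjusted p = 0.00093). PMSC-MF-7d kept 2.67-fold more Bmp4 than HSC-MF-7d (1.41 ± 0.20, adjusted p = 6.7e-06).

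**Figure D3:**
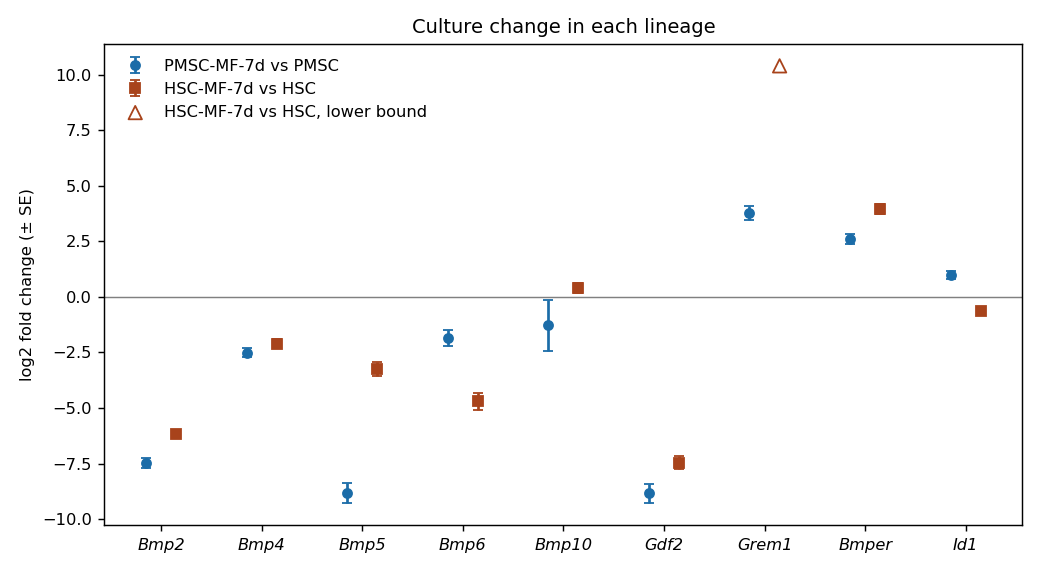
Log2 fold change of each gene in culture with its SE, for PMSC-MF-7d against PMSC (circles) and HSC-MF-7d against HSC (squares); the open triangle marks the lower bound for Grem1 in stellate culture, 10.4, since fresh HSC held no Grem1 counts. Bmp5 separates the cultures at -8.82 against -3.23, Bmp10 in stellate culture lies at 0.40, and Id1 lies at 0.99 in portal and -0.65 in stellate culture.

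Grem1 encodes gremlin, a secreted antagonist that binds BMP2 and BMP4. It had 6.19, 10.5, 8.77 and 7.73 CPM in PMSC and 0 counts in all 4 HSC libraries, at least 185-fold higher in PMSC with HSC set at 3 counts over its 4 libraries (adjusted p = 2.9e-08 by edgeR). Portal culture gave 27.6, 42.8, 54.8 and 52.3 CPM at day 3 and 195, 71.8, 112 and 69.0 CPM at day 7, and HSC-MF-7d had 59.2, 59.2, 63.8 and 60.5 CPM. No neighbouring groups overlapped, and the day 7 portal libraries were the most spread. Grem1 rose 5.35-fold by day 3 (2.42 ± 0.31, adjusted p = 1.7e-06) and 13.5-fold by day 7 against PMSC (3.76 ± 0.32, adjusted p = 1.2e-08). In stellate culture it rose at least 1350-fold (adjusted p = 6.4e-11), and the portal rise was smaller than the stellate rise (adjusted p = 2.1e-06), by 6.65 on the log2 scale when the stellate rise is set at its lower bound of 10.4. PMSC-MF-7d had more Grem1 than HSC-MF-7d (0.88 ± 0.28, adjusted p = 0.015 by edgeR). That call rested on replicate 1 of PMSC-MF-7d, the library at 195 CPM: without it the value was 0.48 (adjusted p = 0.088). With these groups fitted alone the value was again 0.88 and missed the threshold (adjusted p = 0.06), and with the day 3 portal culture in place of day 7 the value was -0.45 (adjusted p = 0.18).

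Bmper, an extracellular protein that binds BMPs and can restrain or promote their signalling, rose in both cultures from overlapping fresh levels. It had 30.5, 23.6, 16.9 and 10.98 CPM in PMSC and 12.9, 17.9, 12.5 and 11.9 CPM in HSC, which overlapped. The fresh difference, 0.57 ± 0.21 (adjusted p = 0.02 by edgeR), was not called with library totals at 0.22 (adjusted p = 0.32), with these groups fitted alone at 0.66 (adjusted p = 0.063) or without PMSC replicate 1 at 0.31 (adjusted p = 0.15). Without HSC replicates 1, 3 or 4 it was of nearly the same size, at 0.53, 0.52 and 0.50, and missed the threshold (adjusted p = 0.054, 0.054 and 0.064). In culture Bmper had 95.6 to 109 CPM in PMSC-MF-3d, 144, 124, 118 and 115 CPM in PMSC-MF-7d and 181.5, 217, 221 and 239 CPM in HSC-MF-7d. All cultured libraries lay above all fresh ones, and all HSC-MF-7d libraries above all portal ones. The rise was 6.10-fold in PMSC-MF-7d against PMSC (2.61 ± 0.21, adjusted p = 9.2e-10) and 15.5-fold in HSC-MF-7d against HSC (3.96 ± 0.22, adjusted p = 5.4e-12), with a difference of -1.35 ± 0.29 (adjusted p = 0.00046). Portal cells had most of the rise by day 3 (2.33 ± 0.21, adjusted p = 3.9e-09), day 7 against day 3 was not called (0.28 ± 0.19, adjusted p = 0.28) except with these groups fitted alone (0.27, adjusted p = 0.015), and PMSC-MF-7d had less Bmper than HSC-MF-7d (-0.78 ± 0.19, adjusted p = 0.0027). On the per-length scale Grem1 and Bmper averaged 182 ± 101 and 80.2 ± 10.4 TPM in PMSC-MF-7d and 99.1 ± 4.34 and 139 ± 16.3 TPM in HSC-MF-7d (SD, n = 4 each). Both antagonists stood above the summed level of the 6 ligands in PMSC-MF-7d, 27.3 TPM, and below that in HSC-MF-7d, 460.4 TPM. Ligand genes outside the set are not in these sums.

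Id1, an inhibitor of DNA binding that is among the most direct targets of BMP-activated SMADs, moved in opposite directions in the cultures. It had 39.6, 47.8, 32.7 and 24.2 CPM in PMSC and 49.6, 45.3, 56.6 and 55.8 CPM in HSC. These overlapped, and the difference of -0.52 ± 0.18 (adjusted p = 0.013 by edgeR) was not kept with these groups fitted alone at -0.44 (adjusted p = 0.061) or without PMSC replicate 4 at -0.37 (adjusted p = 0.052). Its levels were 69.0, 49.0, 55.1 and 62.8 CPM in PMSC-MF-3d, 87.5, 58.2, 63.7 and 77.2 CPM in PMSC-MF-7d and 26.8, 33.3, 31.9 and 39.7 CPM in HSC-MF-7d. All portal cultures exceeded all fresh PMSC libraries and all HSC-MF-7d libraries. Id1 rose 1.99-fold in PMSC-MF-7d against PMSC (0.99 ± 0.18, adjusted p = 4.6e-05), fell 1.57-fold in HSC-MF-7d against HSC (-0.65 ± 0.18, adjusted p = 0.0025), and these changes differed by 1.64 ± 0.25 (adjusted p = 1.3e-05 by edgeR). The portal rise was called at day 3 (0.71 ± 0.18, adjusted p = 0.0012), and PMSC-MF-7d had 2.18-fold more Id1 than HSC-MF-7d (1.12 ± 0.18, adjusted p = 3.2e-05). On the TPM scale of the ligand sums, mean Id1 was 229 TPM in PMSC-MF-7d, whose ligands summed to 27.3 TPM, and 106 TPM in HSC-MF-7d, whose ligands summed to 460.4 TPM. Id1 was highest of the 5 groups in PMSC-MF-7d on both scales, and lowest in HSC-MF-7d on the CPM scale but in fresh PMSC, at 82.4 TPM, on the TPM scale, a description with no test. The part of endothelial RNA in the fresh HSC levels of Id1 and the other Id genes was not tested.

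The other Id genes, which are also BMP targets, did not share the opposite directions of Id1. Id2 had 64.6 ± 15.7 CPM in PMSC-MF-7d and 163 ± 27.6 CPM in PMSC, and 52.0 ± 14.5 CPM in HSC-MF-7d and 139 ± 25.6 CPM in HSC (SD, n = 4 each). It fell in portal culture (-1.33 ± 0.19, adjusted p = 3e-06 by edgeR) and in stellate culture (-1.41 ± 0.19, adjusted p = 1.7e-06). Id4 fell by 2.58 ± 0.22 and 3.13 ± 0.23 on the log2 scale (adjusted p = 1.9e-09 and 2.5e-10). Id3, named after its values were seen, fell by 2.43 ± 0.15 and 2.35 ± 0.15 (adjusted p = 1.2e-11 and 2.5e-11). The differences between the cultures were 0.08 ± 0.27, -0.08 ± 0.20 and 0.55 ± 0.31 for Id2, Id3 and Id4 and were not called (adjusted p = 0.83, 0.77 and 0.13). From day 3 to day 7 of portal culture Id2 was higher by 1.69 ± 0.20, Id3 by 0.58 ± 0.14 and Id4 by 1.03 ± 0.23 (adjusted p = 2.2e-06, 0.0033 and 0.0014), while Id1 gave 0.28 ± 0.17 (adjusted p = 0.22).

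**Figure D4:**
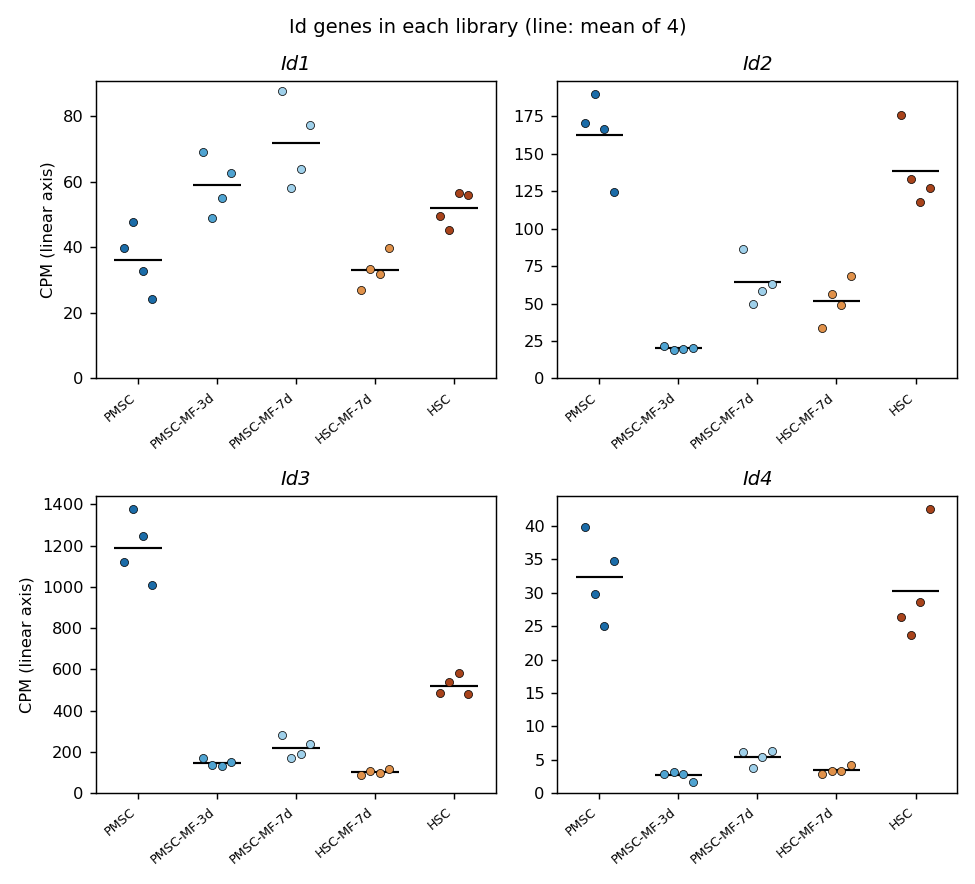
Level of Id1, Id2, Id3 and Id4 in every library, in CPM on a linear axis from 0, by group, with a line at the mean of the 4 libraries. Id1 is higher in PMSC-MF-7d than in PMSC and lower in HSC-MF-7d than in HSC, whereas Id2, Id3 and Id4 are lower in both cultures than in the fresh cells.

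Among 18 other BMP antagonists, 14 were tested, and 13 were higher and 1 lower in PMSC than in HSC, with a median log2 fold change of 4.53, where 33.6% of all genes were higher and 40.1% lower. Chordin-like Chrdl1 was higher in PMSC by 7.34 ± 0.34 on the log2 scale (adjusted p = 3.9e-13 by edgeR), and Crim1, which tethers BMPs at the cell surface, was the lower one at 37.1% of the HSC level and is named after its values were seen. In portal culture at day 7, 4 of the 14 rose and 9 fell against PMSC (38.1% and 39.0% of all genes), and in stellate culture 7 rose and 5 fell against HSC (36.0% and 38.5% of all genes). Chrdl1 fell by 10.01 ± 0.40 in portal culture (adjusted p = 2.8e-14), to 15 counts over the 4 libraries. Vwc2, a chordin-family inhibitor, had 0 counts over PMSC-MF-7d and 881 over PMSC, a level at least 522-fold lower. Follistatin-like Fstl3, an activin inhibitor, rose by 6.28 ± 0.35 in stellate culture (adjusted p = 4.9e-12), to 77.9 ± 3.64 CPM in HSC-MF-7d against 1.02 ± 0.864 CPM in HSC (SD, n = 4 each). The culture change was lower in portal than in stellate cells for 11 of the 14 and higher for 1, against 29.2% and 31.4% of all genes.

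Of 14 other ligand genes of the superfamily, 8 were tested. In PMSC 4 were higher and 2 lower than in HSC, in PMSC-MF-7d 4 rose and 4 fell against PMSC, and in HSC-MF-7d 4 rose and 3 fell against HSC. With 73.7%, 77.0% and 74.5% of all genes called in these comparisons, 6, 8 and 7 of 8 were near the background. Inhba, the activin A subunit, rose in both cultures, to 627 ± 134 CPM in PMSC-MF-7d against 26.8 ± 4.41 CPM in PMSC (4.55 ± 0.17, adjusted p = 1.2e-14 by edgeR) and to 1517 ± 13.4 CPM in HSC-MF-7d against 33.9 ± 7.62 CPM in HSC (5.48 ± 0.18, adjusted p = 2.9e-15; SD, n = 4 each). Gdf10, also called BMP3B, fell by 11.61 ± 0.45 on the log2 scale in portal culture and fell by 8.69 ± 0.40 in stellate culture (adjusted p = 1.8e-14 and 2.7e-13). Inhbb, the activin B subunit, went opposite ways: it rose by 1.11 ± 0.23 in portal culture (adjusted p = 0.00024) and fell by 5.62 ± 0.30 in stellate culture (adjusted p = 2.2e-12), a difference of 6.74 ± 0.38 (adjusted p = 2.2e-11).

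Of 14 receptor symbols, 13 were tested: 6 were higher and 4 lower in PMSC than in HSC, 1 rose and 8 fell in PMSC-MF-7d against PMSC, and 3 rose and 7 fell in HSC-MF-7d against HSC. The 10, 9 and 10 called of 13 were near the 73.7%, 77.0% and 74.5% of all genes. In portal culture 38.1% of all genes rose and 39.0% fell. With library totals in place of TMM scaling the portal culture counts were 4 and 6. Acvrl1, which encodes the receptor for BMP9 and BMP10, was at 185 ± 30.5 CPM in PMSC and 36.7 ± 6.31 CPM in HSC (SD, n = 4 each), higher in PMSC by 2.33 ± 0.19 on the log2 scale (adjusted p = 2e-09 by edgeR). Bmpr1b, a type I receptor, rose by 3.73 ± 0.30 in PMSC-MF-7d (adjusted p = 5.1e-09). It had 1710 counts over HSC-MF-7d and 0 in fresh HSC, at least 527-fold higher. Tgfbr3, the betaglycan co-receptor, fell by 4.35 ± 0.19 in portal culture and by 4.02 ± 0.19 in stellate culture (adjusted p = 9.7e-14 and 4.4e-13).

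All 10 genes of the intracellular signalling list were tested, 7 higher and 2 lower in PMSC than in HSC, 4 higher and 6 lower in PMSC-MF-7d than in PMSC, and 5 higher and 5 lower in HSC-MF-7d than in HSC. Of all genes, 33.6% were higher and 40.1% lower in the first of these comparisons, 38.1% and 39.0% in the second and 36.0% and 38.5% in the third. The inhibitory SMADs moved against each other. Smad6, an inhibitor induced by BMPs, was at 117 ± 21.6 CPM in PMSC-MF-7d and 51.8 ± 3.67 CPM in PMSC, and at 66.7 ± 8.96 CPM in HSC-MF-7d and 94.0 ± 12.4 CPM in HSC (SD, n = 4 each). It rose by 1.18 ± 0.13 in portal culture and fell by 0.49 ± 0.13 in stellate culture (adjusted p = 8.1e-08 and 0.0018), a difference of 1.67 ± 0.18 (adjusted p = 1.9e-07 by edgeR). Smad7, an inhibitor shared with TGF-beta signalling, fell by 1.38 ± 0.14 in portal culture and rose by 0.70 ± 0.14 in stellate culture (adjusted p = 4e-08 and 0.00021), a difference of -2.08 ± 0.20 (adjusted p = 4.5e-08). Smad6 therefore had the directions of Id1, and Smad7 the reverse. The part of endothelial RNA in the fresh HSC levels of Smad6 and Smad7 was not tested. Smad9 rose in both cultures, by 2.46 ± 0.28 and 2.68 ± 0.30 (adjusted p = 1e-07 and 9.3e-08).

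The 12 other target genes include again Smad6, Smad7, Smad9, Id2, Id3, Id4 and an antagonist counted above. Of the 12, 8 were higher and 2 lower in PMSC than in HSC, against 33.6% and 40.1% of all genes. In PMSC-MF-7d 4 rose and 8 fell against PMSC (38.1% and 39.0% of all genes), and in HSC-MF-7d 4 rose and 7 fell against HSC (36.0% and 38.5%). From day 3 to day 7 of portal culture 9 of the 12 rose and the others were not called, where 18.6% of all genes rose and 17.4% fell, among the risers Atoh8, a BMP-induced transcription factor, by 1.06 ± 0.16 (adjusted p = 3.1e-05). The homeobox gene Msx2 had 742 counts over HSC-MF-7d and 0 in HSC, at least 227-fold higher. Hamp, the hepcidin gene and a hepatocyte transcript, fell in HSC-MF-7d against HSC by 8.82 ± 1.08 (adjusted p = 4.4e-06), while the 10 hepatocyte genes, Hamp included, summed to 67.8 to 116 CPM in HSC-MF-7d against 4069 to 17240 CPM in HSC. Nearly all of the cultured sum was the transferrin gene Trf, and the other 9 genes summed to 0.405 to 1.33 CPM in HSC-MF-7d against 3240 to 13800 CPM in HSC. The part of hepatocyte RNA in that fall was not tested.

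Of 7 genes for proteases that process BMPs or their antagonists, 6 were tested, with 4 higher and 1 lower in PMSC than in HSC, where 73.7% of all genes were called. Tll1, a tolloid-like protease that cleaves chordin, had 34344 counts over PMSC-MF-7d and 20 over PMSC, and 20288 over HSC-MF-7d and 8 over HSC. It rose by 9.84 ± 0.42 in portal culture and by 11.12 ± 0.46 in stellate culture (adjusted p = 6e-14 and 7e-14 by edgeR). Pcsk6, a proprotein convertase, fell by 1.95 ± 0.25 in portal culture and rose by 4.12 ± 0.29 in stellate culture (adjusted p = 7.9e-07 and 1.1e-10), a difference of -6.06 ± 0.38 (adjusted p = 9.9e-11). Of the 6, 3 rose and 3 fell in PMSC-MF-7d against PMSC, and 4 rose in HSC-MF-7d against HSC while the other two were not called, against 77.0% and 74.5% of all genes called.

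For each of the 9 genes the closest pattern among the other tested genes was taken as the smallest root mean square difference of centred log2 CPM over the 20 libraries. The closest matches were for Id1, with Cdkn2c at 0.23 and Prdm16 at 0.26, and for Bmp4, with Dtx3 at 0.28 and Aox1 at 0.29. Bmper was followed by Rab3ip at 0.39 and the actin-binding tropomyosin gene Tpm1 at 0.43. Bmp6 was nearest to Kif26a at 0.56 and Crygn at 0.60, Bmp2 to Rtp4 at 0.65 and Gja4 at 0.70, and Grem1 to Map6 and Cpe, both at 0.71. The loosest matches were those of Gdf2, with the receptor gene Vipr1 at 0.73 and the endothelial receptor gene Tie1 at 0.97, of Bmp5, with Apold1 at 1.26 and Sept4 at 1.34, and of Bmp10, with Bco1 at 1.36 and Hcls1 at 1.63. Bco1, the beta-carotene cleaving enzyme, averaged 1.80 CPM or less in every portal group, 1310 CPM in HSC-MF-7d and 135 CPM in HSC, and Bmp10 averaged 170.3 CPM in HSC-MF-7d and 129 CPM in HSC. Within the set, the nearest gene was for example Gdf2 for Bmp2 at 1.76 and Bmp5 for Bmp10 at 3.48. For all 9 it was farther than the nearest gene outside the set, which was drawn from a far larger pool. That order follows largely from the size of the pools and does not show how alike the 9 genes are.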

How the data were processed

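Total RNA of liver cells was extracted with a micro-scale column kit and made into stranded mRNA libraries, per the labels' protocols. The submitters' processing notes name FastQC, Trimmomatic, STAR 2.5.3a, RSEM 1.2.28 and the mm10 build, without the role or settings of each. The authors deposited the RSEM expected count of each of 24848 genes, not normalised, per the file headers. The TPM values of the authors, deposited beside the counts, scale transcripts per length to a common total per library and were used for levels between genes. The deposited FPKM values, also RSEM output per the file headers, were not used.

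Libraries were grouped by title. After rounding, the counts of all 20 libraries entered edgeR 4.0.16 (R 4.3.3) with filterByExpr, which kept 14751 genes and left out 10097, and trimmed-mean (TMM) scaling. The robust quasi-likelihood fit had a mean per group and no block, and an adjusted p under 0.05 (Benjamini and Hochberg, across the genes kept) was called. Standard errors are the size of the log2 fold change over the square root of F. A group without counts was set at 3 counts over its 4 libraries for a bound, which covers counting error only. No libraries held identical counts. The test was tried on simulated counts with known changes. Named genes were the 9 members and, in each pathway list, up to 3 called genes with the largest change whose higher group reached 5 CPM; a gene this rule picked is not reported here. The members and lists were chosen with earlier results of these data known. Alternatives were RLE factors and library totals, no filter on low counts, DESeq2 1.42.0, limma 3.58.1 on log2(TPM + 1) and log2(TPM + 0.1), the compared groups alone, the replicate number as a block, each replicate left out, and, added later, the day 3 portal culture in place of day 7.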

Additional observations from a re-analysis of the deposited data

Results flagged for a closer look

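Single libraries stood apart from their group in 4 of 44 gene-by-group sets of 4. Chance gives about 1 in 20 for normally distributed values, a rate that does not hold for counts near 0, so no excess over chance is read from this. Bmp2 was at 208.0 CPM in PMSC replicate 1, above the other PMSC libraries, and Bmp4 was at 35.2 CPM in HSC replicate 3, above the other HSC libraries. Bmp10 was at 0.204 CPM in PMSC-MF-7d replicate 2 and at 0 in the other libraries of that group. Bmper was at 17.9 CPM in HSC replicate 2, above the other HSC libraries.

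The change in portal culture, as PMSC-MF-7d against PMSC, differed from that in stellate culture, as HSC-MF-7d against HSC, for 6 genes by edgeR's test of the difference. On the log2 scale, portal minus stellate, the difference was -1.31 for Bmp2, -5.58 for Bmp5 and 2.84 for Bmp6. It was -1.35 for Bmper and 1.64 for Id1. For Grem1 the fitted difference was -9.53, which depends on how a group without counts is treated, and it was -6.65 with fresh HSC set at 3 counts.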

How the results depend on the processing

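Across all alternatives run, the number of the 9 genes called stayed within 1.5 times the reported number in each of the 7 comparisons, and so did the number of all genes called. Leaving out each library in turn gave 8 to 9 of the 9 genes between the fresh populations, 8 at day 3 and 8 to 9 at day 7 against fresh PMSC, and 4 to 5 between those days. It gave 8 to 9 in stellate culture, 7 to 8 between the cultured populations and 6 to 7 for the difference of culture changes. Of the values of single genes, 8 changed sign under an alternative, whether or not their call changed too. Among those that kept their direction, 16 lost a call, 12 gained a call and 1742 kept their side of the threshold. Limma gave a difference of culture changes of 0.13 for Bmp2 and 3.16 for Gdf2 on log2(TPM + 1), and 0.51 for Gdf2 on log2(TPM + 0.1). In PMSC-MF-7d the mean TPM of both genes, 0.70 for Bmp2 and 0.0475 for Gdf2, lay below the added 1. With the day 3 portal culture in place of day 7, Grem1 in cultured portal against stellate cells was -0.45. Leaving out a replicate moved Bmp10 in PMSC-MF-3d against PMSC between -0.28 and 0.87, and Bmp6 in PMSC-MF-7d against HSC-MF-7d between -0.14 and 0.29, neither of which had been called. Without PMSC-MF-7d replicate 2, which held all counts of Bmp10 in its group, Bmp10 was called lower at day 7 than in fresh PMSC (adjusted p = 0.026) and than at day 3 (adjusted p = 0.024), and its difference of culture changes was called (adjusted p = 0.021), with a fitted size that is no estimate since no counts were left. The cause of these changes was not tested. With library totals the all-gene median was -0.44 between the fresh populations (-0.10 with TMM), 0.41 at day 3 (-0.07) and 0.43 at day 7 (0.00) against fresh PMSC, and 0.44 for the difference of culture changes (0.10). Between day 7 and day 3, 64.4% of called genes were higher by limma on log2(TPM + 1), against 51.7% as reported.

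With the replicate number as a replicate block, the counts of the 9 genes called were 9, 8, 4, 8, 8, 8 and 6 in the 7 comparisons, as without it, and no call of the 9 genes changed. The numbers were not taken to pair the libraries: same-numbered libraries of different groups had correlations of their deviations from the group means of -0.052 to 0.145, and 10 of 40 library matches were best with their own number. Low counts limited Bmp10 and Gdf2 in portal cultures, where a group held 15 counts or fewer, and Bmp10 in fresh PMSC, which held 7.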
